A study of Mus musculus with 10 samples.

Results

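The genes described here mark where in the body a fat depot formed. They are *Zic1* and *Lhx8*, used as markers of classical brown fat, *Meox2* and *Hoxa5*, patterning genes of the trunk, the T-box genes *Tbx1* and *Tbx15*, the *HoxC* cluster genes *Hoxc8*, *Hoxc9* and *Hoxc10*, used as markers of white fat, and *Tmem26*, a membrane protein used with *Tbx1* as a marker of beige fat. The list gives these 10 genes by name and applies no threshold to their values. A row was listed for 9 of them among 27267 genes, *Hoxc9* was not analysed here, and 6 had a mean normalized count of at least 10 and were tested with 13714 genes in all. A normalized count is the number of reads on a gene divided by the size factor of the library.

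The RNA came from brown adipose tissue, interscapular (iBAT) per the methods, of C57BL/6 mice that the labels give as 4-week-old males, 5 of genotype WT and 5 of genotype Mgp KO, all on a standard chow diet. *Mgp* encodes matrix Gla protein, an extracellular inhibitor of bone morphogenetic proteins (BMPs), and the methods give its deletion as global, in all tissues and not in fat alone. *Ucp1*, the uncoupling protein of brown fat, had 38421 to 116019 normalized counts in the WT libraries and 2201 to 15641 in those labelled *Mgp*-KO (the KO-labelled libraries), and *Cidea*, a lipid droplet protein of brown fat, had 19856 to 43754 in the 10 libraries. The tests measure the spread between libraries, which the methods describe as separate mice. As this is bulk tissue, fewer cells that use a gene and less RNA per cell cannot be told apart.

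Of the 10 libraries, 3 went against their labels, and all labels were kept as given. *Mgp* had 309 reads in the library labelled *Mgp*-KO 4 and 282 in *Mgp*-KO 5, compared with 0 or 1 in *Mgp*-KO 1 to 3 and 485 to 805 in WT. In normalized counts, which allow for depth, *Mgp*-KO 4 had 500.2 and *Mgp*-KO 5 had 330.6. WT 1 to 3 had 466.1 to 575.9, and WT 4 and 5 had 1146 and 839.3. WT 2, labelled male, had 5094 normalized counts of *Xist* and a Y chromosome gene sum of 3.74, where the other 9 libraries had at most 44.0 and at least 1457. Replicates 1 to 3 of both genotypes had 19.6 to 22.3 M reads on genes with 0.771 to 1.72% of them on mitochondrial ribosomal RNA, and replicates 4 and 5 had 9.25 to 13.3 M with 6.50 to 16.7%. Results are therefore given in all 10 libraries, within each of these sets of replicates, and without the libraries in doubt.

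Brown, beige and white fat depots arise from different regions of the embryo. Interscapular brown adipocytes descend largely from dermomyotome cells that also give rise to muscle and dermis, and depots keep expression of the patterning genes of their origin into adult life. The Hox genes lie in 4 clusters, HoxA to HoxD, and their order in a cluster follows the position along the body axis at which they are used, with low numbers toward the head and high numbers toward the tail. Zic proteins are zinc finger factors, Lhx proteins LIM homeodomain factors and Tbx proteins T-box factors.

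Promoter sequences are shown for *Zic1* and *Lhx8*, whose libraries of replicates 1 to 3 separated by genotype, and for *Hoxa5*, the member with the most reads per length. Each is the stretch that lies before the start of the gene, from the RefSeq promoter set of GRCm38.p6, written 5′ to 3′ on the reverse strand, where all 3 genes lie. Capitals mark CG dinucleotides, the bases at which DNA is usually methylated in mammals. The *Zic1* stretch is chr9:91365811-91366018, the *Lhx8* stretch chr3:154330660-154330810 and the *Hoxa5* stretch chr6:52204588-52204837.
Zic1: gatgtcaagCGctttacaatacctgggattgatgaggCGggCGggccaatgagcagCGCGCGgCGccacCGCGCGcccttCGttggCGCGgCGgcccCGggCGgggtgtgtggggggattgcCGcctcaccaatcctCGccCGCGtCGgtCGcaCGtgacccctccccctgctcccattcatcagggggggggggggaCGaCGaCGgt
Lhx8: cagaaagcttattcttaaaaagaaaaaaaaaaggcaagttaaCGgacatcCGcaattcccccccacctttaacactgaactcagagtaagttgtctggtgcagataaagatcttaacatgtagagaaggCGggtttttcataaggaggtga
Hoxa5: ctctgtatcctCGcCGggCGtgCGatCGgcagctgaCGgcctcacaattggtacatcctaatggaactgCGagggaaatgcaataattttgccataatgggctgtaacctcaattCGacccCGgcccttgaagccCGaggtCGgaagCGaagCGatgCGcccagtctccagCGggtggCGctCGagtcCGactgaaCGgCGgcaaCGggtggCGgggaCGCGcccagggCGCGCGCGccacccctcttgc
The 208 bases of *Zic1* held 26 CG, the 250 bases of *Hoxa5* held 28, and the 151 bases of *Lhx8* held 3.

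RefSeq promoter entries, which run from 250 bases before to 50 bases after a start, were found for 6 of the 10 members, *Zic1*, *Lhx8*, *Meox2*, *Tbx1*, *Hoxa5* and *Tmem26*. In these windows of 300 bases *Zic1* had 31 CG, and 10.6% of the 32851 promoters had as many or more. *Hoxa5* had 29, and the 2 starts of *Tbx1* had 26 and 16. *Meox2* had 12 and *Tmem26* 9, near the median of 7 over all promoters. *Lhx8* had 4, and 38.0% of promoters had as few or fewer. The letters GGCGCC, searched on both strands, occurred 1 time in the *Zic1* window and in none of the other members, against 11.9% of all promoters with a match. The letters TATAAA, searched in the same way, occurred 1 time in that of *Meox2* and in no other member, against 13.6% of all promoters. No methylation or binding was measured here, and these counts describe the sequence alone.

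Compared per kb of exon, *Hoxa5* had the highest level of the members, with 307 ± 120 normalized counts per kb (SD, n = 10 libraries). *Meox2* followed with 193 ± 96.1. A lower group was formed by *Lhx8* with 29.9 ± 21.8, *Hoxc8* with 25.2 ± 19.9, *Zic1* with 22.1 ± 14.8 and *Tbx15* with 22.1 ± 15.2. *Hoxa5* was above *Meox2* in both sets of replicates, with 220 ± 25.4 and 150 ± 28.8 in replicates 1 to 3 (n = 6) and 436 ± 69.1 and 257 ± 131 in replicates 4 and 5 (n = 4). The 4 genes of the lower group lay within 1 SD of each other over all 10 libraries, and their order turned between the sets. In replicates 1 to 3 *Lhx8* was the highest of them with 39.3 ± 22.9 and *Hoxc8* the lowest with 12.7 ± 3.23, whereas in replicates 4 and 5 *Hoxc8* was the highest with 43.9 ± 19.9 and *Lhx8* the lowest with 15.7 ± 10.7. Every library had more *Meox2* per kb (103.7 or more) than any library had of these 4 genes (72.02 or less).

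The beige markers and *Hoxc10* were near or under the limit of these libraries. A gene without reads is under a floor of 3 reads, which equals 2.15 to 5.19 normalized counts depending on the library, for counting error only. *Tmem26* had 21 reads over all 10 libraries and at most 4 in any of them, 11 in WT and 10 in the KO-labelled libraries. *Tbx1* had 13 reads, 5 in WT and 8 in the KO-labelled libraries, again with at most 4 in a library. *Hoxc10* had 1 read, in WT 1. The gene shares 166 exon bases with *Hoxc5* on the same strand, and the position of this read was not available. These genes did not reach the level required for testing, and a difference between genotypes was not detectable at this depth. Exact permutation tests of their single values gave p = 0.540 for *Tbx1*, 0.738 for *Tmem26* and 1 for *Hoxc10* (two-sided, n = 5 per group), where 0.00794 was the smallest p that 5 against 5 libraries allow.

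The first comparison asked whether the genotype labels separated the members in all 10 libraries. None of the 6 tested members passed an adjusted p of 0.05 in limma, where 0.0656% of all tested genes did. At an unadjusted p under 0.05 there was 1, *Lhx8*. EdgeR called none of the 6, with 0.0219% of all genes called, and DESeq2 called none, with 2.26% called, and each again had 1 at an unadjusted p under 0.05. The median log2 fold change over the 6 genes was 0.38, compared with 0.03 over all tested genes.

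**Figure D1:**
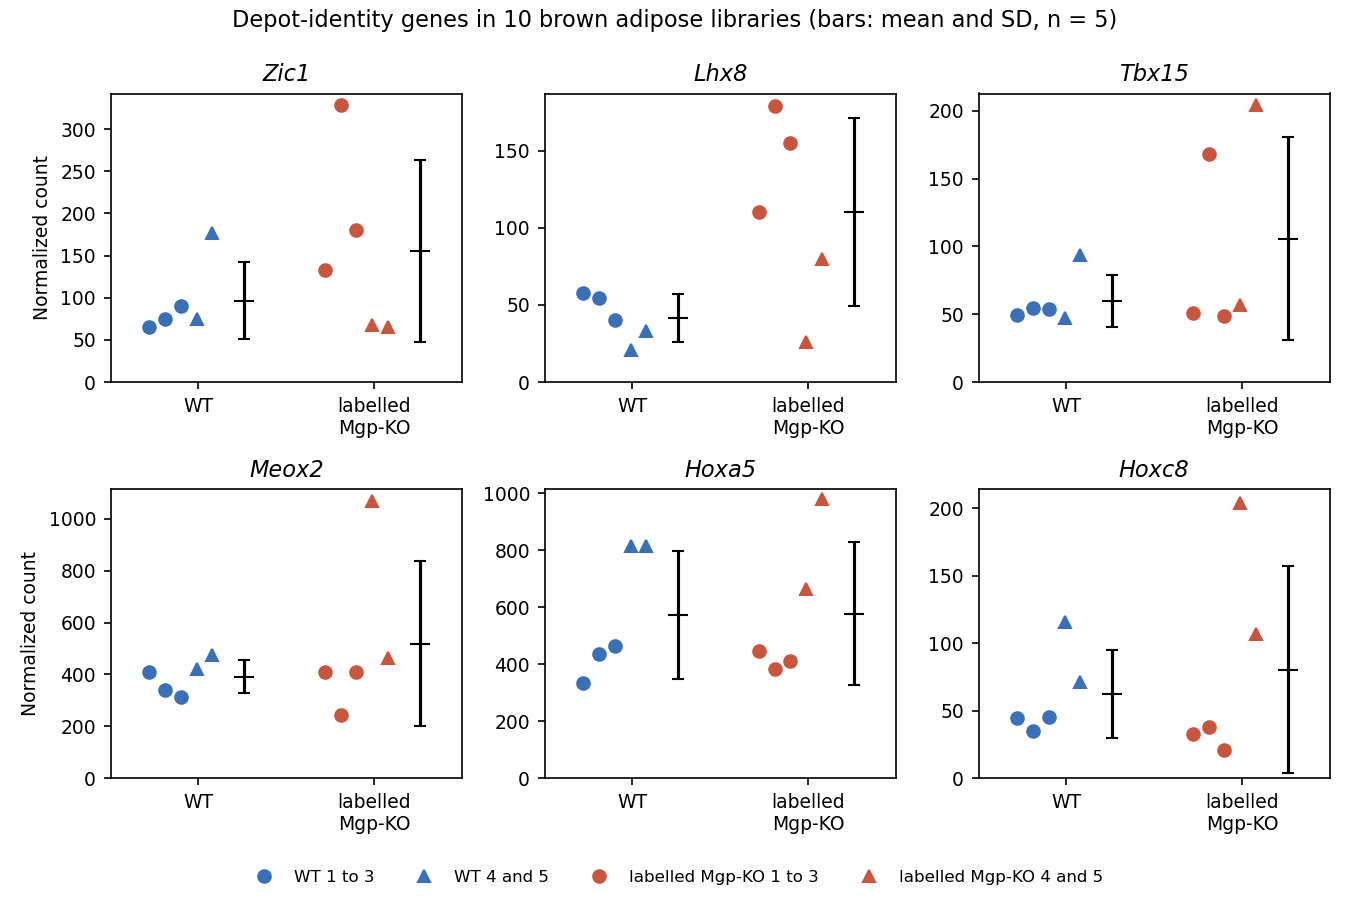
Normalized counts of the 6 tested members in each library. Each panel is 1 gene on its own linear axis from 0, blue points are WT and red points the KO-labelled libraries, circles are replicates 1 to 3 and triangles replicates 4 and 5, and the bar gives the mean and SD of the 5 libraries. The red circles of *Zic1* and *Lhx8* lie above the blue circles, and the triangles of *Hoxa5* and *Hoxc8* above the circles in both genotypes.

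*Lhx8* (chr3:154306294-154330659 on GRCm38, reverse strand, 10 exon blocks) is needed for the development of basal forebrain neurons and of the palate, and serves as a marker of brown fat. In WT 1 to 5 it had 57.9, 54.7, 40.4, 20.5 and 32.9 normalized counts. In *Mgp*-KO 1 to 5 it had 110.0, 179.0, 155.2, 25.9 and 79.7. *Mgp*-KO 1, 2, 3 and 5 were above every WT library, and *Mgp*-KO 4, with 16 reads, was below 4 of the 5. The mean was 41.3 ± 15.5 in WT and 110.0 ± 60.8 in the KO-labelled libraries (SD, n = 5). The log2 fold change was 1.22 (standard error 0.49), with an adjusted p of 0.411 in limma and an exact permutation p of 0.0714.

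*Zic1* (chr9:91358058-91365810, reverse strand, 4 exon blocks) acts in the neural tube and the dorsal somite. In WT 1 to 5 it had 65.8, 74.9, 90.4, 74.8 and 176.5 normalized counts. In *Mgp*-KO 1 to 5 it had 133.4, 328.2, 180.6, 68.0 and 65.6. The groups overlapped, with WT 5 among the high libraries and *Mgp*-KO 4 and 5 among the low ones. Limma gave a log2 fold change of 0.51 with a standard error of 0.44 (adjusted p = 0.739), and the exact permutation p was 0.373. *Zic4*, no member itself but the neighbour of *Zic1* on the opposite strand, shares 60 exon bases with it, and the strand setting of the counting was not given in the sources used here. *Zic4* had 17.2, 19.5, 19.1, 19.1 and 8.65 normalized counts in WT and 31.7, 76.5, 45.2, 17.8 and 35.2 in the KO-labelled ones, a difference of 1.16 on the log2 scale (adjusted p = 0.320, limma).

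*Tbx15* (chr3:99240381-99354259, forward strand, 10 exon blocks) acts in limb and skeletal development and in glycolytic muscle fibres, and differs between fat depots. In WT 1 to 5 it had 49.4, 54.7, 53.7, 46.9 and 93.4 normalized counts. In *Mgp*-KO 1 to 5 it had 51.3, 168.3, 48.4, 56.7 and 204.0. *Mgp*-KO 2 and 5 were the highest of all, and the other 3 lay between 48.4 and 56.7, within the range of WT. On the log2 scale the difference was 0.58 with a standard error of 0.43, which did not pass in limma (adjusted p = 0.688) or in the exact permutation test (p = 0.278). The same 2 libraries had the highest sum of 18 skeletal muscle markers, 46754 and 48928 normalized counts, compared with 577 to 1428 in the other 3 KO-labelled libraries and 682 to 8829 in WT. All 18 markers had reads in *Mgp*-KO 2 and 5 and in WT 3, whereas 1 to 5 were at 0 in the other 7 libraries. Within replicates 1 to 3 the log2 fold change of *Tbx15* was 0.50 with and -0.07 without *Mgp*-KO 2.

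*Meox2* (chr12:37108540-37179534, forward strand, 3 exon blocks) patterns the somite and limb muscle and is also used by endothelial cells. In WT 1 to 5 it had 410.6, 339.9, 313.9, 420.7 and 474.1 normalized counts. In *Mgp*-KO 1 to 5 it had 410.8, 244.8, 408.1, 1070 and 461.9. *Mgp*-KO 4 alone stood above WT, and *Mgp*-KO 2 was the lowest of all. The difference of 0.24 on the log2 scale had a standard error of 0.32 (limma, adjusted p = 0.842) and an exact permutation p of 0.627, and it was -0.06 without *Mgp*-KO 4. *Mgp*-KO 4 also had the highest sum of 12 endothelial markers, 66585 normalized counts compared with 20767 to 35454 in the other 9 libraries. All 12 endothelial markers had a positive log2 fold change in the fit of all 10 libraries, with a median of 0.51, but none passed the test in limma, edgeR or DESeq2 in these libraries (1, 2 and 3 at an unadjusted p under 0.05). With the set as a term DESeq2 called none either, where 7.42% of all genes passed, with 7 at an unadjusted p under 0.05. In replicates 1 to 3 DESeq2 called 1 of the 12 higher, where it called 8.83% of all genes. This was *Esam*, an adhesion molecule of endothelial junctions (0.59, adjusted p = 0.0213). The part of muscle or endothelial RNA in these results was not tested beyond the values without those libraries.

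**Figure D2:**
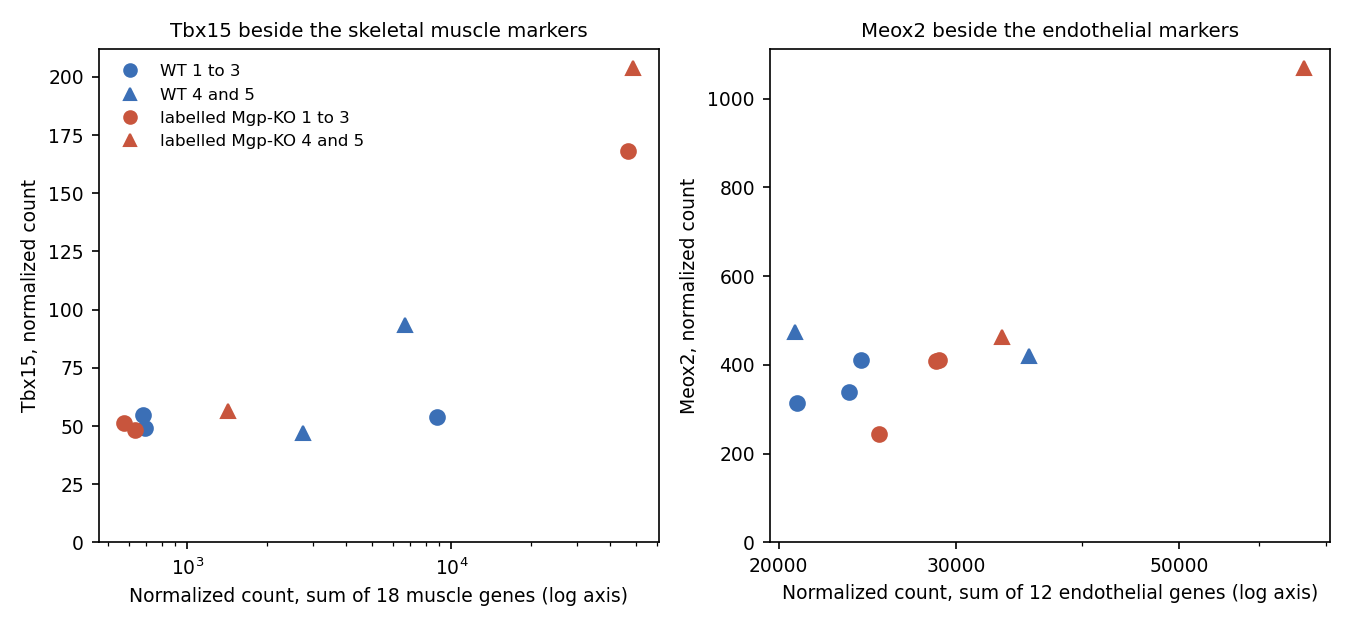
*Tbx15* beside the summed skeletal muscle markers and *Meox2* beside the summed endothelial markers, in normalized counts per library. The x axes are logarithmic and the y axes linear from 0, with 1 point per library, WT in blue and KO-labelled libraries in red. *Mgp*-KO 2 and 5 stand apart at the upper right on the left, and *Mgp*-KO 4 on the right.

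*Hoxa5* (chr6:52201754-52204587, reverse strand, 2 exon blocks) patterns the neck and upper trunk. In WT 1 to 5 it had 335.5, 435.8, 465.3, 815.0 and 815.0 normalized counts. In *Mgp*-KO 1 to 5 it had 447.7, 383.2, 413.0, 663.7 and 981.2. The groups overlapped throughout, and the high values belonged to replicates 4 and 5 of both genotypes. Its log2 fold change was 0.01, with a 95% interval of -0.70 to 0.72 (adjusted p = 0.996, limma). Within replicates 1 to 3 it was 0.02, with an interval of -0.34 to 0.38.

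*Hoxc8* (chr15:102990607-102994111, forward strand, 2 exon blocks) patterns the lower thorax and is a marker of white depots. In WT 1 to 5 it had 44.4, 35.2, 45.6, 115.8 and 70.9 normalized counts. In *Mgp*-KO 1 to 5 it had 32.4, 38.2, 20.5, 204.0 and 106.7. Replicates 4 and 5 were again the high libraries, and *Mgp*-KO 3, with 25 reads, was the lowest. In limma its log2 fold change was -0.01, with a wide 95% interval of -1.27 to 1.25 (adjusted p = 0.997). It was 0.36 in edgeR and in DESeq2, and -0.47 to 0.34 in limma with 1 library left out, so that its direction changed with the tool and with the libraries used.

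The same comparison was then made within each set of replicates, since *Mgp* reads were nearly absent in *Mgp*-KO 1 to 3. Of the 6 tested members, *Lhx8* rose in replicates 1 to 3, from 51.0 ± 9.31 to 148.1 ± 35.0 normalized counts (SD, n = 3), a 2.84-fold difference on the log scale (log2 1.51, standard error 0.24, adjusted p = 0.0240, limma), where 3.54% of all tested genes passed. *Zic1* had 77.0 ± 12.4 and 214.1 ± 102 normalized counts (log2 1.37, standard error 0.32) and missed the threshold with an adjusted p of 0.0663 in limma, as did *Zic4* with 1.32 (adjusted p = 0.0778). In all 3 genes each KO-labelled library was above each WT library of replicates 1 to 3, which held in this direction for 15.5% of all tested genes. *Lhx8* and *Zic4* in *Mgp*-KO 1 to 3 were also above all 5 WT libraries, as were 9.79% of all tested genes.

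DESeq2 called *Lhx8* (log2 1.53, adjusted p = 4.57e-06), *Zic1* (1.47, adjusted p = 5.55e-04) and *Zic4* (1.45, adjusted p = 0.00980) within replicates 1 to 3, with 8.83% of all genes called. *Mgp*-KO 2, the highest library for *Zic1*, *Zic4* and *Lhx8*, was also the one of this set with the most skeletal muscle RNA. Without it *Lhx8* (1.36, adjusted p = 0.0218, limma) and *Zic1* (1.01, adjusted p = 0.0365) both passed, where 5.91% of all genes did, and *Zic4* had 0.99 (adjusted p = 0.0792). Leaving out WT 3, the WT library of this set with the most muscle RNA, as well gave 1.20 for *Lhx8* and 1.13 for *Zic1*, both still past the threshold, as were 8.74% of all genes. *Meox2* (-0.03), *Hoxa5* (0.02), *Tbx15* (0.50) and *Hoxc8* (-0.48) did not pass within replicates 1 to 3.

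When only *Mgp*-KO 4 and 5 were left out, *Lhx8* had a log2 fold change of 1.88 (adjusted p = 0.0319, limma), with 1.95% of all genes called. Leaving out WT 2 as well gave 2.0, but the adjusted p rose to 0.0517. *Zic1* had 1.14 and 1.07 in these fits and passed in neither (adjusted p = 0.158 and 0.227). With all 10 libraries and the set of replicates as a term, *Lhx8* had an adjusted p of 0.0709 in limma, where 2.36% of genes passed, and of 0.00121 in DESeq2, where 7.42% passed. *Zic4* also passed in that DESeq2 fit (1.29, adjusted p = 0.0166), and *Zic1* did not.

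In replicates 4 and 5, with 2 libraries for each genotype, no gene passed in limma (0.0%), members included, and none of the 6 members had an unadjusted p under 0.05. *Lhx8* had 26.7 ± 8.74 normalized counts in WT and 52.8 ± 38.1 in the KO-labelled libraries, or 0.79 on the log2 scale (standard error 0.71). For *Zic1* both WT libraries (74.8 and 176.5) were above both KO-labelled libraries (68.0 and 65.6), or -0.77 on the log2 scale (standard error 0.52), and 21.3% of all tested genes were separated in this direction. *Meox2*, *Hoxc8* and *Tbx15* had 0.65, 0.70 and 0.69, and *Hoxa5* -0.01. Since *Mgp* reads were present in both KO-labelled libraries of this set, these values compare the labels and not known genotypes.

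**Figure D3:**
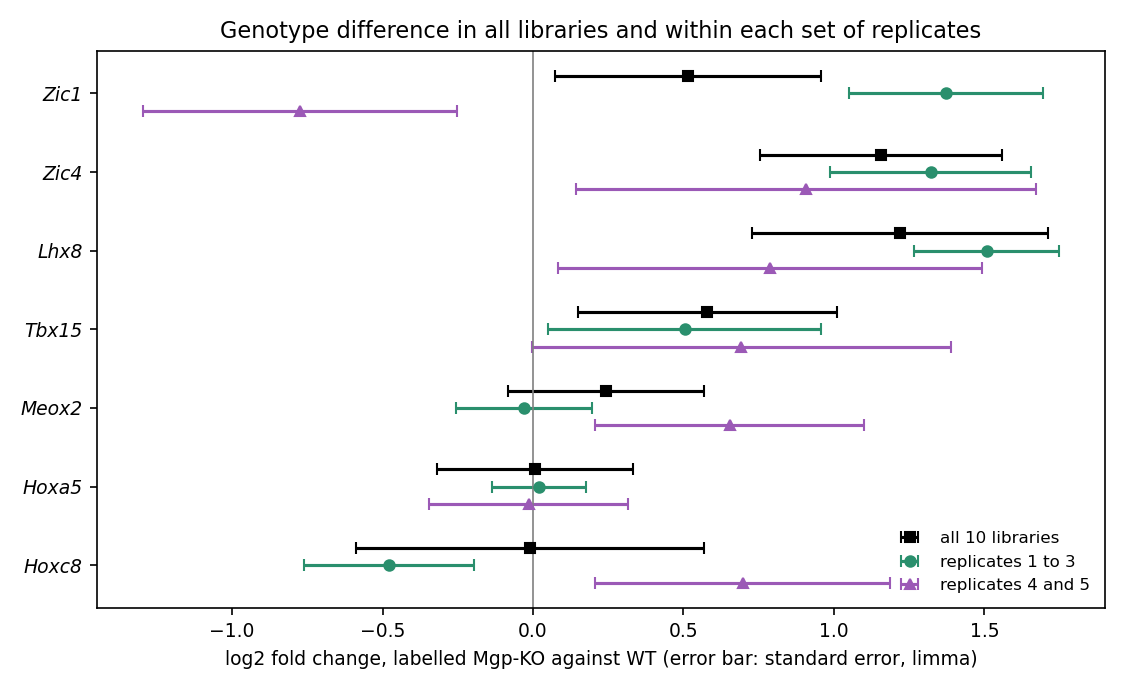
Log2 fold changes of the 6 tested members and of *Zic4*, KO-labelled libraries against WT, with standard errors from limma. Black squares are all 10 libraries, green circles replicates 1 to 3 and purple triangles replicates 4 and 5. *Lhx8* and *Zic4* lie to the right of 0 in all 3 fits, *Zic1* changes side between the sets (1.37 and -0.77), and *Hoxa5* stays within 0.02 of 0.

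Whether the genotype difference itself differed between the sets was tested as an interaction. *Zic1* had the largest value of the members, -2.15 on the log2 scale (standard error 0.59). Its unadjusted p was 0.00466 but its adjusted p was 0.455 in limma, so the difference did not hold against the number of genes tested. *Hoxc8* followed with 1.18 (adjusted p = 0.483). None of the 6 members passed, and over all tested genes 0.00729%, which is *Mgp* itself, did.

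The members were then compared between the sets of replicates. With genotype in the model, *Hoxa5* was higher in replicates 4 and 5 by 0.98 on the log2 scale (adjusted p = 6.66e-04, limma), and *Hoxc8* by 1.70 (adjusted p = 0.00191). *Lhx8* was lower by 1.29 (log2 value -1.29, adjusted p = 0.00969). These 3 of 6 members passed, where 38.2% of all tested genes did. *Meox2* had 0.68 (adjusted p = 0.0547), *Tbx15* 0.42 and *Zic1* -0.49, and none of these passed in limma. In edgeR *Meox2* passed as well (adjusted p = 0.0466).

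For *Hoxa5* the 6 libraries of replicates 1 to 3 held 335.5 to 465.3 normalized counts and the 4 of replicates 4 and 5 held 663.7 to 981.2, with no overlap. For *Hoxc8* the ranges were 20.5 to 45.6 and 70.9 to 204.0, also without overlap. The ranges of *Meox2* were 244.8 to 410.8 and 420.7 to 1070, again without overlap but with a narrow gap. Such a separation, with replicates 4 and 5 higher, held for 11.8% of all tested genes. The sets also differ in depth and in mitochondrial ribosomal RNA, and what part these have in the differences was not tested.

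The members of the Hox clusters were set beside all 39 Hox genes of the mouse, of which 27 had a row and 21 were tested. Their levels per kb were summarised by paralog group, the number in the gene name, as a description without a test. Groups 1 to 3 ran from 0.17 to 41.8 (*Hoxa3*) normalized counts per kb, with a median of 19.0. Groups 4 to 8 overlapped with them and ran from 5.54 to 307 (*Hoxa5*), with a median of 65.3. The 3 genes of group 9 with a row had 1.68 to 11.7 (*Hoxd9*) and a median of 4.06, and the 3 genes of groups 10 to 13 with a row had at most 0.28 and 10 reads in all libraries together. *Hoxc8* was below this median of groups 4 to 8, and *Hoxc10* was among the genes at the limit of detection.

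**Figure D4:**
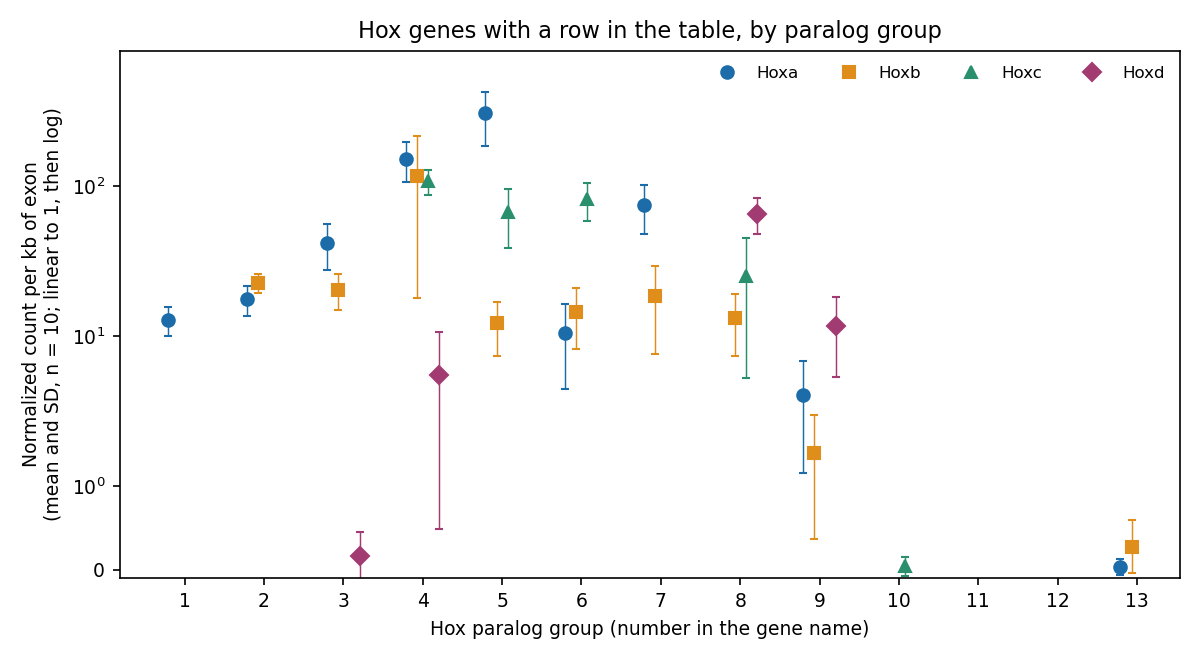
Hox genes with a row, by paralog group on the x axis and by normalized count per kb of exon on the y axis (linear up to 1 and logarithmic above), with mean and SD over the 10 libraries and 1 symbol per cluster; error bars are cut at the lower edge. *Hoxa5* is the highest point at 307, groups 4 to 8 (5.54 to 307) overlap with groups 1 to 3 (0.17 to 41.8), and the points of groups 10 to 13 lie at or below 0.28.

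None of the 21 tested Hox genes passed between the genotype labels in limma in all 10 libraries, with 2 at an unadjusted p under 0.05, *Hoxc5* (log2 -0.84) and *Hoxd9* (1.11), and a median of 0.29 over the 21. EdgeR called none of them, with 3 at an unadjusted p under 0.05. DESeq2 called 1 of the 21, where it called 2.26% of all genes. This was *Hoxd9* (log2 1.25, adjusted p = 0.0452), a gene of posterior patterning, which had 11.8 to 19.1 normalized counts in WT and 18.1 to 50.5 in the KO-labelled libraries. It passed with the set as a term as well (1.24, adjusted p = 0.0163, DESeq2), where 7.42% of all genes passed. Limma with that term called no Hox gene. In replicates 1 to 3 limma called no Hox gene, and DESeq2 called *Hoxc5* lower (-0.92, adjusted p = 0.0166) and not *Hoxd9*, with 8.83% of all genes called. Between the sets of replicates 6 of 21 passed in limma, a share of 28.6% beside the 38.2% of all genes. *Hoxa5*, *Hoxb4*, *Hoxc4*, *Hoxc8* and *Hoxd8* were higher in replicates 4 and 5, and *Hoxa3* was lower. Hox proteins bind DNA with Pbx, Meis and Pknox cofactors. None of the 8 tested cofactor genes differed by genotype label in limma, edgeR or DESeq2, and none had an unadjusted p under 0.05 in any of them.

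The families of the other members were counted next. Of the Zic genes, *Zic1* and *Zic4* reached the level required for testing. Of 12 LIM homeobox genes 9 had a row, and *Lhx8* was tested with *Lhx6*, which had 71.4 normalized counts in WT and 114.4 in the KO-labelled libraries (log2 0.62, adjusted p = 0.440, limma). Of 17 T-box genes 13 had a row and 8 were tested, none of which passed by genotype label in all 10 libraries in limma, edgeR or DESeq2 or had an unadjusted p under 0.05 in any of them. Among these, *Tbx3*, a regulator of limb and mammary development, had 707 normalized counts and *Tbx5*, of heart and forelimb, 185, compared with 82.7 of *Tbx15*. Per kb these were 106.8, 39.6 and 22.1. *Meox1*, the other Meox gene, had 90.5 normalized counts with a log2 fold change of -0.47 (adjusted p = 0.765, limma). Of 22 regulators of somite and dermomyotome, 12 were tested and none passed in all 10 libraries in limma, edgeR or DESeq2, with 0, 1 and 1 at an unadjusted p under 0.05 and a median of 0.02. In replicates 1 to 3 neither limma nor DESeq2 called any of the 12, with 5 and 6 at an unadjusted p under 0.05. These fits called 3.54% and 8.83% of all genes. Without *Mgp*-KO 2, in a fit added after seeing the data, limma called 2 of the 12, where 5.91% of all genes passed. These were *Tcf15*, a factor of somite epithelium, which was higher (0.87, adjusted p = 0.0154), and *Ebf2*, a regulator of brown preadipocytes, which was lower (-0.46, adjusted p = 0.0367).

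Lists of depot markers, which share members with the genes above, were counted in the same way. Of 17 tested brown depot markers none passed in limma in all 10 libraries without a set term, with 6 at an unadjusted p under 0.05 and a median log2 fold change of -0.32. EdgeR called none, and DESeq2 called *Ucp1* (-2.58, adjusted p = 1.73e-05) and *Elovl3*, a fatty acid elongase of brown fat (-4.15, adjusted p = 0.0271), both lower, where it called 2.26% of all genes. With the set of replicates as a term limma called 3 of the 17 lower, *Ucp1* (-2.70), *Elovl3* (-3.64) and *Dio2* (-3.35), where 2.36% of all genes passed. DESeq2 with that term called the same 3 lower and *Lhx8* higher, where 7.42% passed. In replicates 1 to 3 limma called 3 of the 17, where 3.54% of all genes passed. *Ucp1* (-2.76, adjusted p = 0.0454) and *Elovl3* (-3.05, adjusted p = 0.0313) fell, while *Lhx8* rose in the same libraries. *Prdm16*, a regulator of brown adipocyte fate, had -0.94 there (adjusted p = 0.0507, limma). In the same libraries DESeq2 called 7 of the 17, where it called 8.83% of all genes. *Ucp1*, *Elovl3*, *Dio2*, the deiodinase that activates thyroid hormone, and *Prdm16* (-0.94, adjusted p = 9.59e-04) were lower, and *Lhx8*, *Zic1* and *Fbxo31* (2.47, adjusted p = 0.0156) were higher. Without *Mgp*-KO 2 limma called 8 of the 17 in replicates 1 to 3, 3 of them higher (*Lhx8*, *Zic1* and *Fbxo31*) and 5 lower (*Ucp1*, *Elovl3*, *Dio2*, *Prdm16* and *Ebf2*), where 5.91% of all genes passed.

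None of 10 tested beige markers passed in limma, edgeR or DESeq2 in all 10 libraries, with 2 at an unadjusted p under 0.05 in limma and a median of 0.01. In replicates 1 to 3 DESeq2 called 2 of the 10, where it called 8.83% of all genes. These were *P2rx5*, an ATP-gated channel (-0.88, adjusted p = 0.0215), and *Slc36a2*, an amino acid transporter (-0.77, adjusted p = 0.00176), both lower. Limma called neither there, and called both lower without *Mgp*-KO 2, where 5.91% of all genes passed. None of 10 tested white markers passed in the 3 tools in all 10 libraries without a set term, with 1 at an unadjusted p under 0.05 in limma, 4 in edgeR and 4 in DESeq2, and a median of 0.30. With the set as a term DESeq2 called 1 of the 10 higher, where it called 7.42% of all genes. This was *Adgrg2*, an adhesion G protein-coupled receptor (1.96, adjusted p = 0.0468). In replicates 1 to 3 DESeq2 again called *Adgrg2* alone, higher (2.67, adjusted p = 0.00974), where it called 8.83% of all genes. The highest library of *Adgrg2* was *Mgp*-KO 2 with 113.2 normalized counts, compared with 5.99 to 45.3 in the other 9. Limma called no white marker in either of these fits. Of the white markers, *Hoxc8* is described above, and *Hoxc10* was not tested.

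The members differed from each other in their pattern across libraries. Over the 10 libraries, with each set of replicates centred on its own mean, Pearson's r of the log2 values of 2 members ran from -0.52 (*Meox2* and *Hoxa5*) to 0.72 (*Lhx8* and *Tbx15*), and was 0.57 for *Zic1* and *Lhx8*. These values are descriptions over libraries that share genotype and muscle RNA. Among all tested genes the pattern most like that of *Tbx15* was that of *Slc29a1*, a nucleoside transporter (r = 0.99), followed by *Pkia* (0.97) and *Tnni1*, a troponin of slow muscle fibres (0.96). For *Meox2* they were *Arhgap30* (0.99), *Tfpi* (0.97) and *Cd83* (0.96). The most similar gene was *Gm14027* for *Zic1* (0.97), *Ano9* for *Lhx8* (0.98), *Gm10941* for *Hoxa5* (0.91) and *Fam32a* for *Hoxc8* (0.95). As the highest values of a search through all tested genes outside the members, these r are high by selection. Whether they exceed what such a search gives without a relation was not tested.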

How the data were processed

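Per the labels and the submitters’ processing notes, the authors mapped reads of 50 bases to mm10 with STAR, and per the methods divided the counts on genes by size factors from DESeq2. The deposited values are thus a signal that is never negative, in normalized counts. In each library 100% of values were whole multiples, within 0.1 reads, of the value of 1 read, and the reads were recovered (9253793 to 22252260 per library). Annotation release and strand setting were not given in the sources used here. Floors cover counting error only, since reads lack molecular identifiers.

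The members and gene lists were chosen with earlier results of these data known. Members, their list neighbours, the gene most like each member and genes that check labels are named, and *Hoxd9* and 2 more genes like each of *Tbx15* and *Meox2* were named after their values were seen. Limma 3.58.1 (R 4.3.3, eBayes with trend) was fitted to log2(normalized count + 1) of genes with a mean of at least 10, without a block, with Benjamini-Hochberg adjustment over all 13714 genes and a threshold of 0.05. EdgeR 4.0.16 and DESeq2 1.42.0 used recovered reads. Fold changes from limma are on the log2(value + 1) scale, and understate low genes, whereas those from edgeR and DESeq2 come from models of the reads. Single values were compared by two-sided exact permutation tests. The fits were tested on simulated data. Positions and exon lengths come from GENCODE vM21 on GRCm38, where 25666 listed symbols (94.1%) were found, and promoters from RefSeq (GRCm38.p6). No 2 libraries of all 10 were duplicates. Other pseudocounts, filters, scalings, tools and left-out libraries were tried. The values of 1 listed gene are not reported here.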

Additional observations from a re-analysis of the deposited data

Results flagged for a closer look

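The genotype difference of *Zic1* went in opposite directions in the sets of replicates. All libraries labelled *Mgp*-KO 1 to 3 were above WT 1 to 3, and both labelled *Mgp*-KO 4 and 5 were below WT 4 and 5. The first separation held for 15.5% and the second for 21.3% of all tested genes. The interaction was -2.15 on the log2 scale with an adjusted p of 0.455 in limma, so the difference failed the correction.

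*Tbx15* in WT 5, with 93.4 normalized counts, stood apart from the other 4 WT libraries (46.9 to 54.7). On the log2(normalized count + 1) scale its gap to the next library was 0.779 of the range of the group, where the critical value for 5 samples is 0.71. Of 12 such groups looked at this was the one that stood out, and chance gives about 1 in 20 groups, or 0.6 of 12.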

How the results depend on the processing

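The count of members past the threshold by genotype label was 0 of 6 in all 10 libraries and 0 when any 1 library was left out. It was 1 in DESeq2 with a term for the set, in replicates 1 to 3 in limma and without *Mgp*-KO 4 and 5, each time *Lhx8*. It was 2 in DESeq2 within replicates 1 to 3 and in the fits added after seeing the data, within replicates 1 to 3 without *Mgp*-KO 2 and also without WT 3. The log2 fold change of *Lhx8* kept its direction in all 30 alternatives (0.79 to 2.0, and 0.98 to 1.66 with 1 library left out). That of *Zic1* reversed in replicates 4 and 5 alone (-0.77), and was 0.18 to 0.75 with 1 library left out. *Meox2* reversed in replicates 1 to 3 (-0.031 in limma, -0.0085 in DESeq2), without *Mgp*-KO 4 and 5 (-0.17) and without these and WT 2 (-0.21), and ran from -0.062 to 0.47 with 1 library left out. *Tbx15* reversed within replicates 1 to 3 without *Mgp*-KO 2 (-0.074) and also without WT 3 (-0.059). *Hoxa5* was -0.0036 with equal upper quartiles, -0.014 in replicates 4 and 5, -0.38 without *Mgp*-KO 4 and 5, -0.45 also without WT 2, and -0.21 to 0.16 with 1 library left out. *Hoxc8* was 0.033 at a pseudocount of 10, 0.36 in edgeR and in DESeq2, 0.0081 in edgeR with the replicate block, 0.033 in DESeq2 with the set term, 0.70 in replicates 4 and 5, -0.92 without *Mgp*-KO 4 and 5, -1.09 also without WT 2, -0.66 in replicates 1 to 3 without *Mgp*-KO 2, and -0.47 to 0.34 with 1 library left out. The cause was not tested. Over all genes 9 passed, and 0 to 1348 under the alternatives, 0 to 93 of these with 1 library left out.

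Replicate numbers are shared by the genotypes, and the methods speak of pairs of mice without saying that a number marks one. Deviations from group means correlated at 0.390 for the same number, at 0.0559 for number 2 and 0.327 to 0.527 for the other 4, and at 0.416 for other numbers of the same set, so the numbers were not taken as pairs. With the replicate block in limma, *Lhx8* had an adjusted p of 0.0567, none of the members passed, and 270 genes did. Depth limits *Tbx1*, *Tmem26* and *Hoxc10*.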
